A study of Mus musculus with 8 samples.

Results

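Mitochondrial ribosomal proteins are encoded in the nucleus and imported into mitochondria, where they join the ribosomal RNAs of mitochondrial DNA to form the small and the large subunit of the mitochondrial ribosome. That ribosome makes the few proteins written in mitochondrial DNA, all of them subunits of the respiratory chain or of ATP synthase. Beta cells depend on mitochondrial ATP production to couple glucose to insulin release. The genes described here are the protein-coding genes whose symbol begins with Mrpl or Mrps followed by a digit. There are 78 of them, all 78 in the annotation used for symbols, among 13725 genes in the deposited table. Of these, 49 have Mrpl symbols and 29 have Mrps symbols.

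Pancreatic islet RNA from female NOD mice aged 10 weeks was sequenced after PAHSA (spelled PASHA in the sample labels), a family of lipids in which palmitic acid is esterified to a hydroxy stearic acid, or after vehicle. NOD is an inbred strain that develops autoimmune diabetes, and both groups carry this background. Each group has 4 libraries, numbered 1 to 4 for PAHSA and 1, 3, 4 and 5 for vehicle. The labels describe sets of islets pooled from 2 mice, whereas the design text counts 4 mice a group, so a library may be 1 mouse or a pool. The p-values therefore measure spread among libraries, which may be partly technical. No dose, route or duration was given in the sources used here.

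Values are log2 CPM, library-scaled read counts on a log2 scale, as deposited. Estimated counts recovered from the lowest values of each library came to between 35356278 and 39359123 in PAHSA and between 34461742 and 45236238 in vehicle. Islet hormone genes were abundant in every library, with Ins2 between 16.32 and 16.66 log2 CPM in PAHSA libraries and between 16.22 and 16.62 in vehicle libraries. The 30 acinar markers with values are genes of the digestive gland around the islets. They summed to between 636.2 and 22800 CPM in PAHSA and between 15200 and 60380 CPM in vehicle. Of the 28 tested all were lower in PAHSA, 20 of them at an unadjusted p under 0.05. Over all tested genes, 4.29% were lower in PAHSA at that level. Duct markers summed to 3472 to 4435 CPM in PAHSA and 4244 to 6178 CPM in vehicle. Of 9 tested duct markers, 7 were lower in PAHSA, 4 of them at that level, and 2 higher. Stellate markers had 8 lower and 1 higher of 9 tested, macrophage markers 5 lower and 1 higher of 6. Both tested endothelial markers were lower. Of 15 lymphocyte markers 2 had values, summing to between 1.09 and 2.44 CPM in PAHSA and between 0.575 and 1.49 CPM in vehicle. In islet pieces of mixed cell content, fewer cells of a type and less RNA per cell cannot be told apart.

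In PAHSA islets no mitochondrial ribosomal protein gene differed from vehicle past an adjusted p of 0.05 (limma, Benjamini-Hochberg over 12231 genes). That threshold was passed by 0 of 12231 genes, a background of 0.00%. All 78 genes passed the filter on low values. Of the 78 genes, 48 were higher and 30 lower in PAHSA, a share of 61.5% higher against 49.1% of all tested genes, with a median difference of 0.05 on the log2 scale against -0.0056 for all tested genes. An unadjusted p under 0.05 was reached by 7.31% of all tested genes. In the family 4 genes reached it with PAHSA higher, which is 5.13% of the 78 against a background of 3.02%, and 0 were lower against a background of 4.29%. These 4 were Mrpl50, Mrps9, Mrps30 and Mrpl42. Their number was 1 without vehicle replicate 3 or PAHSA replicate 2, and 2 without vehicle replicate 1, PAHSA replicate 1 or PAHSA replicate 3. With 1 library left out, 669 to 968 of all tested genes reached that level in either direction, against 894 with all libraries. The smallest adjusted p in the family was 0.671, equal to the smallest over all genes.

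The estimated differences were small, while most intervals allowed a change beyond 0.5 in some direction. The family ranged from -0.40 to 0.61 on the log2 scale, and 76 of 78 genes differed by less than 0.5, as did 9987 of 12231 tested genes and 6720 of 7435 tested protein-coding genes in the same range of mean level. Half-widths of the 95% confidence interval had a median of 0.42 in the family and 0.55 over all tested genes. The interval lay within 0.5 on either side of 0 for 26 of the 78 genes and within 1 for 75 of them. Replicates of these genes lay close together, with a median SD within groups of 0.24 log2 CPM, against 0.32 for the 7557 tested genes in the same range of mean level. The recovered estimated counts of a family member in a library lay between 249 (Mrpl47, PAHSA replicate 2) and 4583 (Mrpl17, vehicle replicate 5), with a median of 1204.

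**Figure D1:**
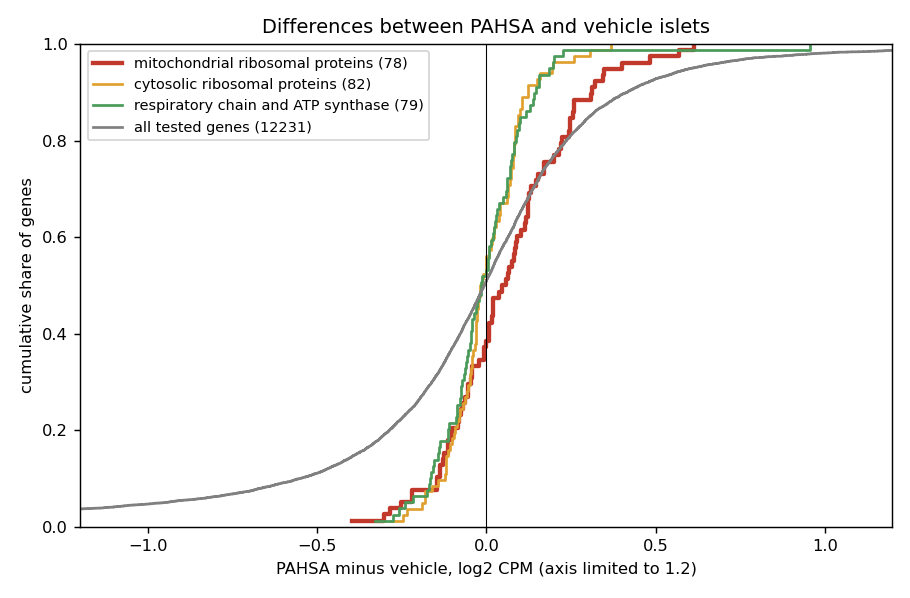
Cumulative share of genes (vertical axis) against the difference PAHSA minus vehicle in log2 CPM (horizontal axis, limited to 1.2 on either side) for the 78 mitochondrial ribosomal protein genes, 82 cytosolic ribosomal protein genes, 79 subunit genes of the respiratory chain and ATP synthase, and all 12231 tested genes. The curve of the mitochondrial ribosomal proteins is steeper than that of all genes and crosses 0 at a lower share, with 30 of 78 genes below 0. The cytosolic ribosomal and respiratory chain lists were taken by symbol.

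Start regions of some of the genes described in this report are given first. They are DNA of the coding strand of each gene, 5′ to 3′, from 250 bases before to 50 bases after the RefSeq start (GRCm38.p6). Capitals mark letters searched for on both strands that are known to bind transcription factors of nuclear genes for mitochondria: CCGGAAG for the ETS family, which includes the subunit encoded by Gabpa, AAGATGGCG for YY1, and, for NRF1, the palindrome made of GCGCA followed by its reverse complement. The end of the ETS letters and the start of the YY1 letters are the same 3-letter run, AAG. The motifs joined over it were in 0 windows of the family and in 0 of the 9333 tested genes with a window. The first 4 windows belong to the genes with an unadjusted p under 0.05.
Mrpl50 (chr4:49521034-49521333, strand minus): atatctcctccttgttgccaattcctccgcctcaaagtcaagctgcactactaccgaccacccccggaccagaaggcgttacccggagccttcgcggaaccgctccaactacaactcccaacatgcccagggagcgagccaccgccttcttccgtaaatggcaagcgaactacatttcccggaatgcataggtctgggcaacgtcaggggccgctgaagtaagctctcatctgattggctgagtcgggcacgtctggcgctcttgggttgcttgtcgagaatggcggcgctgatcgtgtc
Mrps9 (chr1:42850983-42851282, strand plus): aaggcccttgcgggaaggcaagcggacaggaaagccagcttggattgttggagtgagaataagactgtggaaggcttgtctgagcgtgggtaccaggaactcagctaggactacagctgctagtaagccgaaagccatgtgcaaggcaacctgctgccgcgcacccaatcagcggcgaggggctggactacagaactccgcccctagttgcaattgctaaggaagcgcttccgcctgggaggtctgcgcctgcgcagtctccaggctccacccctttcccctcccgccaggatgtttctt
Mrps30 (chr13:118387203-118387502, strand minus): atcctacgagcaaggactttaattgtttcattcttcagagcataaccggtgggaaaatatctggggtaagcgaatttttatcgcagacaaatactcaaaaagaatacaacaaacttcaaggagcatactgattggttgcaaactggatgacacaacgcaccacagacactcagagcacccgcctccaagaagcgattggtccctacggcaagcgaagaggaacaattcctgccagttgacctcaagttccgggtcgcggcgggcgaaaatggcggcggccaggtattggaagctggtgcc
Mrpl42 (chr10:95501900-95502199, strand minus): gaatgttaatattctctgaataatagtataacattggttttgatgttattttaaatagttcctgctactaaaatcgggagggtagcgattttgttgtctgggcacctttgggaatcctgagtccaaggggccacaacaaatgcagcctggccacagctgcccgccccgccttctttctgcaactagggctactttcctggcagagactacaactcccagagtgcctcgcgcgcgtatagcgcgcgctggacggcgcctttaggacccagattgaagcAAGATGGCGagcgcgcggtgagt
In these windows the YY1 letters occur in that of Mrpl42, just after its start, and the windows of Mrpl50, Mrps9 and Mrps30 hold none of the searched letters. The next windows belong to Mrps11 and Mrpl46, which lie on opposite strands and whose windows overlap, and to Mrps12. The YY1 letters occur in reverse in the window of Mrps11 and the ETS letters in that of Mrps12, with none of the searched letters in that of Mrpl46.
Mrps11 (chr7:78782881-78783180, strand plus): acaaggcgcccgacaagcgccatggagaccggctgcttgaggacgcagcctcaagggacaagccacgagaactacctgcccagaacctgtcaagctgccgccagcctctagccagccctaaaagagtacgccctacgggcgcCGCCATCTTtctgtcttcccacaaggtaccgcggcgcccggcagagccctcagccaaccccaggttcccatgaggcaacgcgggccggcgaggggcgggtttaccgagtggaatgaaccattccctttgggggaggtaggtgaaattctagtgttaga
Mrpl46 (chr7:78783040-78783339, strand minus): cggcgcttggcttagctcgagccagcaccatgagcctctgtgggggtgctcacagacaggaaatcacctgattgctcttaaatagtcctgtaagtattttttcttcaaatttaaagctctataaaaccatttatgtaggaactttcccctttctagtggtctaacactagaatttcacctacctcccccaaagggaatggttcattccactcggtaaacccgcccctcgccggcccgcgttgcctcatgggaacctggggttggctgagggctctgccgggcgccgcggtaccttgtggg
Mrps12 (chr7:28741772-28742071, strand minus): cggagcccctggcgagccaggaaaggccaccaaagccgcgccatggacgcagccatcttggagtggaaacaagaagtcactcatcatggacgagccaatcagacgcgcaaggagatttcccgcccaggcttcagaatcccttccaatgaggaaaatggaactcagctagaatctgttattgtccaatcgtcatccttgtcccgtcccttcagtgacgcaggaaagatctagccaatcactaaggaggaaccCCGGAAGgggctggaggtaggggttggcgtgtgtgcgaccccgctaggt
Windows were found for 69 of the 78 genes. The ETS letters were in 26 of the 69, or 37.7%, against 20.8% of 9333 tested genes with a window. The YY1 letters were in 8, or 11.6%, against 3.78%, and the NRF1 letters in 3, or 4.35%, against 2.44%. Of the 26 genes with the ETS letters, 15 were higher and 11 lower in PAHSA, with a median of 0.01. Of the 43 without them, 28 were higher and 15 lower, with a median of 0.11.

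Mrpl50 encodes a large subunit protein of mitochondria with no bacterial counterpart. It measured 5.22, 5.79, 5.37 and 5.34 log2 CPM in PAHSA replicates 1 to 4, against 4.88, 5.003, 4.74 and 5.14 in vehicle replicates 1, 3, 4 and 5. Every PAHSA library lay above every vehicle library, by a gap of 0.075. The means were 5.43 ± 0.25 in PAHSA and 4.94 ± 0.17 in vehicle (SD, n = 4 each), a difference of 0.48 (SE 0.17), or 1.40-fold (limma, adjusted p = 0.671). Leaving out 1 library at a time kept the difference between 0.37 and 0.55. The gene (ENSMUSG00000044018) lies on chromosome 4 from 49512596 to 49521093 in GRCm38.

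Mrps9 encodes a small subunit protein with a bacterial counterpart and had the largest difference of the family. It measured 4.66, 4.78, 4.13 and 4.69 log2 CPM in PAHSA replicates 1 to 4, against 3.83, 3.64, 3.97 and 4.36 in vehicle replicates 1, 3, 4 and 5. The groups overlapped, because PAHSA replicate 3 lay below vehicle replicate 5. The means were 4.56 ± 0.30 in PAHSA and 3.95 ± 0.31 in vehicle (SD, n = 4 each), a difference of 0.61 (SE 0.24), or 1.53-fold (limma, adjusted p = 0.671). It ranged from 0.51 to 0.76 when 1 library was left out. The gene (ENSMUSG00000060679) lies on chromosome 1 from 42851233 to 42905683.

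Mrps30 carries a small subunit name but its protein sits in the large subunit of the mammalian mitochondrial ribosome. It measured 5.24, 5.17, 5.50 and 4.50 log2 CPM in PAHSA replicates 1 to 4, against 4.70, 4.43, 4.45 and 4.56 in vehicle replicates 1, 3, 4 and 5. PAHSA replicates 1, 2 and 3 lay above all vehicle libraries and PAHSA replicate 4 lay among them. The difference was 0.57 (SE 0.22), with means of 5.10 ± 0.42 in PAHSA and 4.53 ± 0.13 in vehicle (SD, n = 4 each; limma, adjusted p = 0.671). Leaving out 1 library gave 0.44 (without PAHSA replicate 3) to 0.77 (without PAHSA replicate 4). The gene (ENSMUSG00000021731) lies on chromosome 13 from 118378381 to 118387252.

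Mrpl42 encodes another large subunit protein found only in mitochondria. It measured 5.79, 6.11, 5.88 and 5.81 log2 CPM in PAHSA replicates 1 to 4, against 5.44, 5.38, 5.59 and 5.80 in vehicle replicates 1, 3, 4 and 5. The groups overlapped only through vehicle replicate 5, which lay above PAHSA replicate 1. The means were 5.90 ± 0.14 in PAHSA and 5.55 ± 0.19 in vehicle (SD, n = 4 each), a difference of 0.34 (SE 0.15; limma, adjusted p = 0.671). The gene (ENSMUSG00000062981) lies on chromosome 10 from 95480805 to 95501940.

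Of the other higher genes, those with the smallest p were Mrpl28 and Mrps17, both with bacterial counterparts. Mrpl28 measured 6.20, 6.25, 6.19 and 6.17 log2 CPM in PAHSA, the tightest set of the genes named here, against 5.86, 5.54, 6.27 and 5.76 in vehicle. Vehicle replicate 4 lay above every PAHSA library and the other vehicle libraries below all of them. The difference was 0.35 (SE 0.16; limma, adjusted p = 0.687), with 0.24 without vehicle replicate 3 and 0.48 without vehicle replicate 4. Mrps17 was at 5.91, 5.55, 5.94 and 5.79 in PAHSA, against 5.26, 5.50, 5.70 and 5.48 in vehicle, a difference of 0.31 (SE 0.15; limma, adjusted p = 0.705). Mrps2, a small subunit protein with a bacterial counterpart and among the most variable genes of the family, differed by 0.40 (SE 0.25; 0.21 without vehicle replicate 4 and 0.23 without PAHSA replicate 1), with 5.09 to 5.91 in PAHSA and 4.45 to 5.47 in vehicle.

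**Figure D2:**
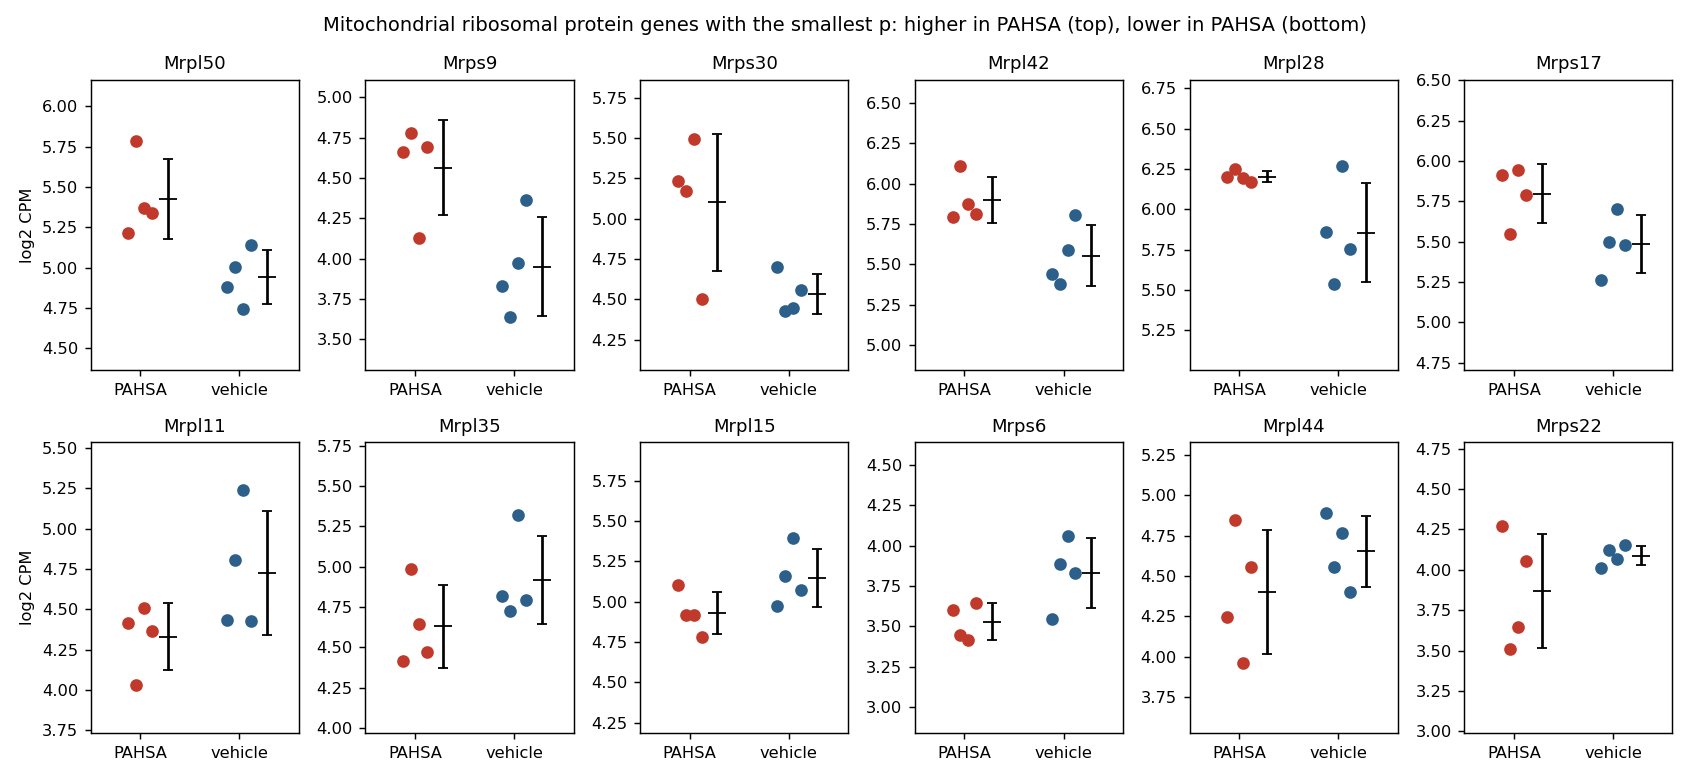
Log2 CPM (vertical axis, 1.8 units in every panel) of the 6 genes higher and the 6 genes lower in PAHSA with the smallest unadjusted p; points are libraries in the order of their numbers, PAHSA red and vehicle blue, and black bars show mean and SD (n = 4 each). For Mrpl50 the 4 PAHSA points lie above the 4 vehicle points, whereas in the other 11 panels the groups overlap.

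Among lower genes none had an unadjusted p under 0.05. Mrpl11, a protein at the base of the stalk where translation factors bind, measured 4.42, 4.03, 4.51 and 4.37 log2 CPM in PAHSA replicates 1 to 4, against 4.43, 4.81, 5.24 and 4.43 in vehicle replicates 1, 3, 4 and 5. The difference of -0.40 (SE 0.23; limma, adjusted p = 0.747) was the lowest of the family, and it was -0.23 without vehicle replicate 4, the library with the highest value. Mrpl35 differed by -0.29 (SE 0.21; -0.15 without vehicle replicate 4), with 4.42 to 4.99 in PAHSA and 4.73 to 5.32 in vehicle. Mrpl15 differed by -0.22 (SE 0.16; -0.14 without vehicle replicate 4), with 4.78 to 5.10 in PAHSA and 4.97 to 5.39 in vehicle.

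Mrps6, a small subunit protein with a bacterial counterpart, differed by -0.30 (SE 0.23), with 3.42 to 3.65 in PAHSA and 3.54 to 4.06 in vehicle. Mrpl44, whose protein resembles RNA-cleaving enzymes of the RNase III family, differed by -0.25 (SE 0.23), with -0.10 without PAHSA replicate 3 and -0.40 without PAHSA replicate 2. Mrps22, a mitochondrion-specific protein of the small subunit, differed by -0.22 (SE 0.24), with a wide range of 3.51 to 4.27 in PAHSA and a narrow one of 4.01 to 4.15 in vehicle. Its difference was -0.099 without PAHSA replicate 2, -0.14 without PAHSA replicate 3 and -0.35 without PAHSA replicate 1. In each of these lower genes the groups overlapped.

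By place in the ribosome, the 51 genes of large subunit proteins, which include Mrps30 and Mrps18a, had 32 higher and 19 lower and a median of 0.02. The 26 small subunit genes had 16 higher and 10 lower and a median of 0.08. Large subunit proteins listed with a bacterial counterpart had 17 higher and 12 lower of 29 (median 0.02). Those listed as specific to mitochondria had 15 higher and 7 lower of 22 (median 0.04). In the small subunit the counts were 9 higher and 6 lower of 15 (median 0.08) and 7 higher and 4 lower of 11 (median 0.09). This split depends on the assignment used, which placed Mrps28 and Mrpl55 with the proteins specific to mitochondria. The difference between these lists was not tested.

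Grouped by structural role, a grouping chosen after the values were seen, no set contained a gene with an unadjusted p under 0.05. Of 4 genes listed here for the stalk, 1 was higher and 3 lower. Among them Mrpl12, which binds translation factors on the stalk, was at 4.77 ± 0.15 log2 CPM in PAHSA islets and 4.57 ± 0.32 in vehicle islets (SD, n = 4 each; difference 0.20, SE 0.20, with 0.12 without vehicle replicate 1 and 0.36 without vehicle replicate 4). Around the exit tunnel, through which the nascent protein leaves, 2 genes were higher and 6 lower of 8 listed, with a median of -0.09. Mrpl17, at that exit, had the highest mean log2 CPM of the family, not scaled by length, and the least spread, at 6.71 ± 0.08 in PAHSA and 6.79 ± 0.13 in vehicle (SD, n = 4 each; 95% confidence interval of the difference -0.32 to 0.16). The difference of Mrpl17, -0.08, was -0.018 without vehicle replicate 4 and -0.12 without vehicle replicate 5. Of 4 genes listed here for the central protuberance, where the subunits meet the transfer RNAs, 2 were higher and 2 lower. These role lists may not hold every protein of each place.

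The Mrps18 paralogs, 3 related proteins that occupy different places in the ribosome, each had a 95% confidence interval of the difference that included 0. Mrps18b differed by 0.25 (SE 0.16; 0.15 without vehicle replicate 1), Mrps18a by 0.06 (SE 0.15; -0.016 without PAHSA replicate 2) and Mrps18c by -0.13 (SE 0.19; 0.01 without vehicle replicate 4). Per kilobase of transcript, the level of Mrps18a was 77.3 ± 10.1 CPM in PAHSA islets and 74.0 ± 10.9 in vehicle islets (SD, n = 4 each). Mrps18b was at 77.6 ± 10.7 CPM per kilobase in PAHSA and 65.6 ± 10.3 in vehicle, and Mrps18c at 44.2 ± 5.79 in PAHSA and 48.7 ± 10.1 in vehicle. The mean of Mrps18c thus lay below those of Mrps18a and Mrps18b in both groups. In vehicle the ranges of mean ± SD of Mrps18c and Mrps18b overlapped.

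Across the family, mean levels per kilobase ran from 3.25 CPM (Mrpl19) to 110.5 CPM (Mrps33), with a median of 22.0 CPM. The transcript lengths behind them are medians over annotated coding transcripts, 1224 bases in the median family member against 2738 in all tested protein-coding genes, so the order depends on which isoforms islets use. Mrps33 was at 113.4 ± 13.8 CPM per kilobase in PAHSA and 107.6 ± 13.05 in vehicle, and Mrpl36 next to it at 106.4 ± 16.3 in PAHSA and 98.1 ± 2.65 in vehicle (SD, n = 4 each), so this pair did not differ beyond its spread. At the low end, Mrps25, Mrpl47 and Mrpl19 had 4.03 ± 1.36, 3.56 ± 1.48 and 3.30 ± 0.44 CPM per kilobase in PAHSA and 3.12 ± 0.28, 3.36 ± 1.85 and 3.20 ± 0.67 in vehicle.

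**Figure D3:**
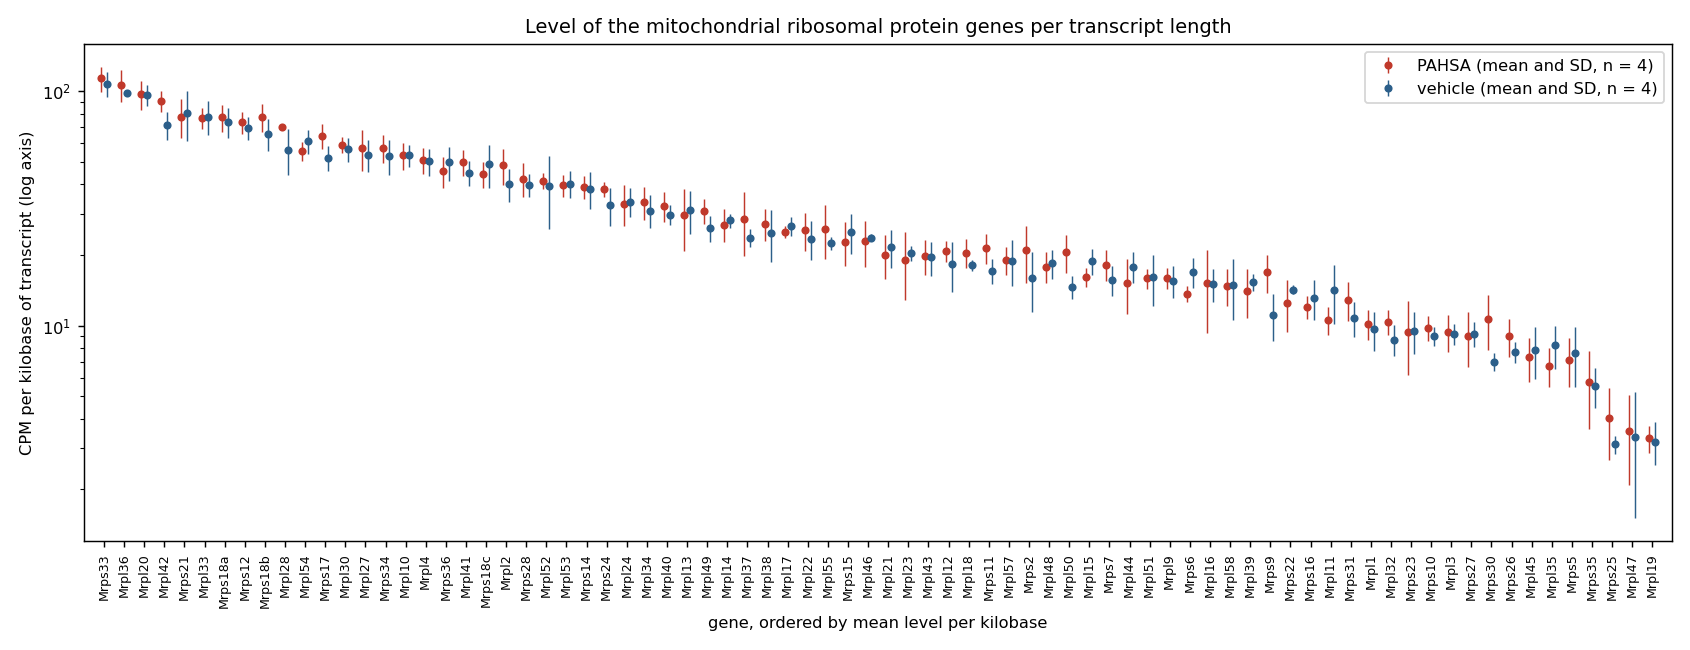
CPM per kilobase of transcript (vertical log axis) of the 78 genes ordered by their mean level (horizontal axis); red points are PAHSA and blue points vehicle, with mean and SD (n = 4 each). Levels run from 110.5 CPM per kilobase for Mrps33 to 3.25 for Mrpl19, and the bars of the groups overlap for most genes.

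The genes with the lowest mean log2 CPM, again not scaled by length, were Mrps10, Mrpl47 and Mrps23. Mrps10 ranged over 3.09 to 3.47 log2 CPM in PAHSA and 3.13 to 3.42 in vehicle. Mrpl47, a protein at the exit tunnel, varied most, at 3.21, 2.81, 3.73 and 4.196 in PAHSA replicates 1 to 4, against 3.38, 2.67, 4.34 and 3.01 in vehicle replicates 1, 3, 4 and 5. Its difference of 0.13 (-0.10 without PAHSA replicate 4) had a 95% confidence interval from -0.80 to 1.07, and the libraries numbered 4 were the highest of both groups. Mrps23 was at 2.86 to 4.03 in PAHSA and 3.25 to 3.96 in vehicle, a difference of -0.06 (SE 0.32; 0.17 without PAHSA replicate 4).

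Other genes of known function showed differences within their errors. Mrps12, a protein of the decoding centre, differed by 0.08 (SE 0.14), with 5.73 to 6.03 log2 CPM in PAHSA and 5.63 to 6.01 in vehicle. Mrpl58, which frees stalled ribosomes as a peptidyl-tRNA hydrolase, differed by 0.0074 (SE 0.22), and its sign changed with the scaling and the libraries used. Mrps36, whose protein is known as a subunit of the 2-oxoglutarate dehydrogenase complex rather than of the ribosome, differed by -0.13 (SE 0.19), with 4.58 to 5.06 in PAHSA and 4.63 to 5.19 in vehicle. Mrps33 differed by 0.07 (SE 0.14) and Mrpl36 by 0.10 (SE 0.14). With 1 library left out the difference ran from 0.026 to 0.15 for Mrps12, -0.24 to -0.042 for Mrps36, 0.0089 to 0.16 for Mrps33 and 0.028 to 0.21 for Mrpl36, so single libraries set the size of each.

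**Figure D4:**
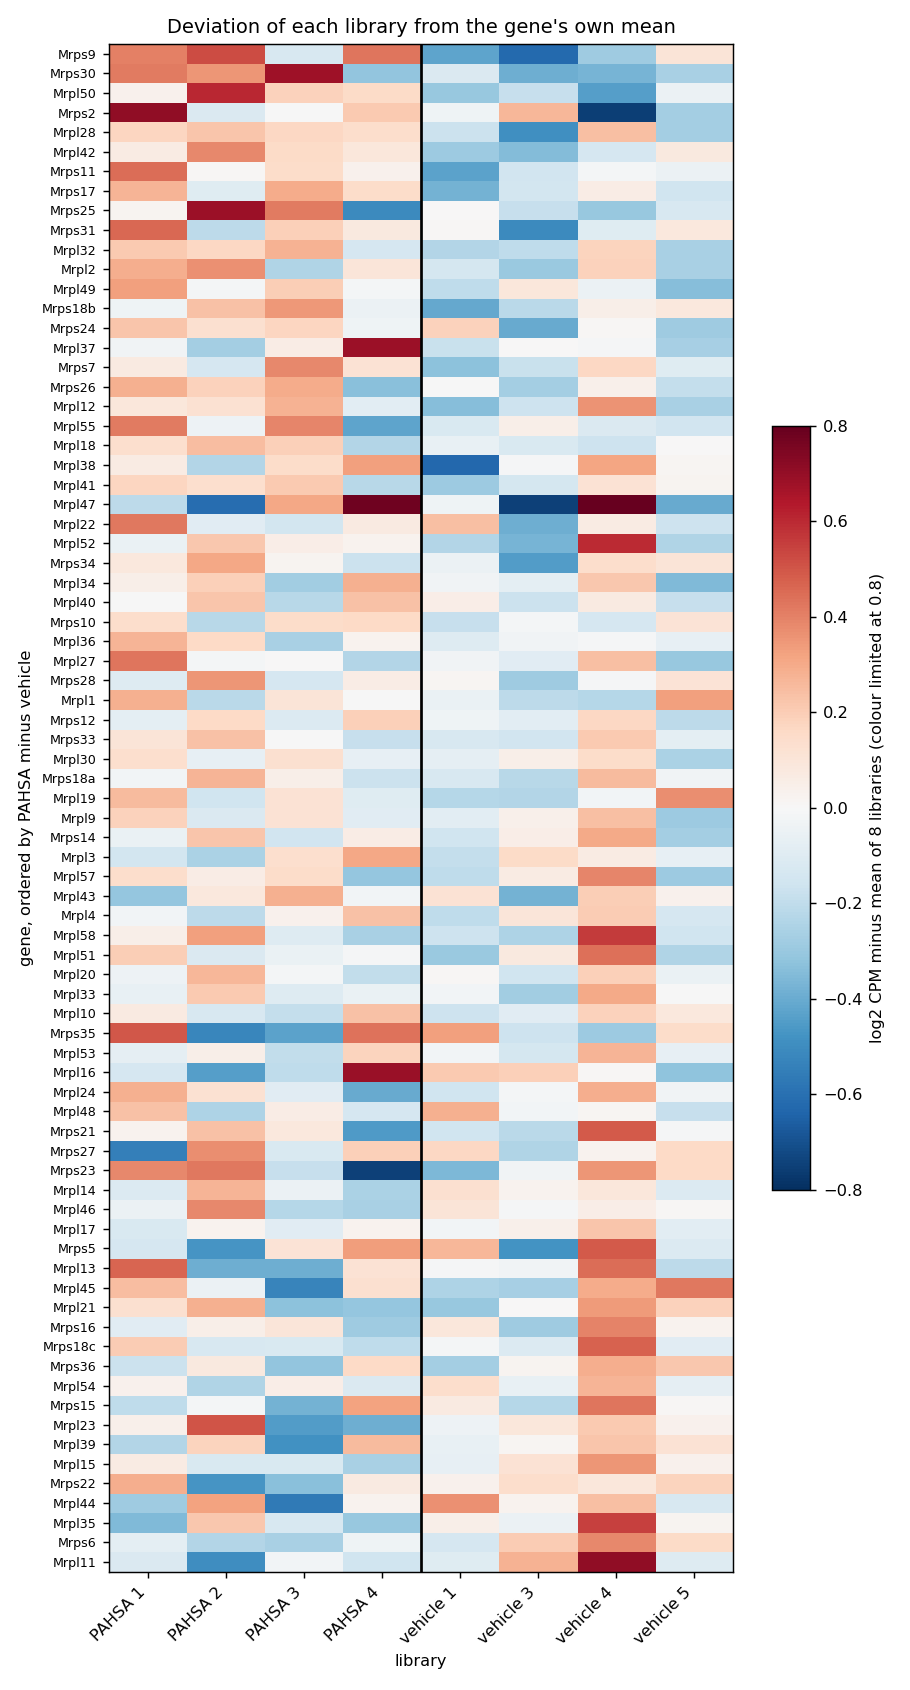
Each row is 1 of the 78 genes, ordered by PAHSA minus vehicle from the highest at the top, and each column a library, PAHSA left and vehicle right of the line; colour is the library's log2 CPM minus the gene's mean over the 8 libraries, limited at 0.8. The column of vehicle replicate 4 is above the mean in 60 of 78 rows, more than in any other library.

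Vehicle replicate 4 differed from the other vehicle libraries in the family and also in the summed level of the islet endocrine markers. The summed level of the 78 genes was 2896, 2870, 2727 and 2726 CPM in PAHSA replicates 1 to 4, against 2524, 2502, 3056 and 2559 CPM in vehicle replicates 1, 3, 4 and 5. Vehicle replicate 4 thus lay above every PAHSA library and the other 3 vehicle libraries below all of them. It held the highest value of 26 genes, 33.3% of the family, where 15.5% of all tested genes were highest in it. Vehicle replicate 3 held the highest value of 0 genes and the lowest of 18, or 23.1%. Of all tested genes, 10.96% were highest and 11.29% lowest in vehicle replicate 3. Vehicle replicate 4 also had the largest sum of acinar markers, 60380 CPM, and its CPM summed to 1069261, the highest total, against 965680 in PAHSA replicate 1, the lowest. The CPM sum of the 14 islet endocrine markers, hormone genes and others such as Pdx1, had the same order of libraries around the PAHSA range. It was 236300 to 255900 CPM in PAHSA, against 264200 CPM in vehicle replicate 4 and 215200 to 222700 CPM in the other vehicle libraries. Single hormone genes did not all follow that order. In vehicle replicate 4, Ins2 was at 16.62 log2 CPM, below PAHSA replicate 2 at 16.66. Gcg was at 16.07 there, within the PAHSA range of 16.01 to 16.29. In PAHSA 9 of the 14 endocrine markers were higher, 3 with an unadjusted p under 0.05, and 5 lower, 0 with such a p. Over all tested genes, 3.02% were higher and 4.29% lower at that level. Their part in the family's values was not tested.

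With the libraries rescaled to the same plain CPM total, an alternative chosen after seeing the data, the summed level was 2998, 2832, 2750 and 2798 CPM in PAHSA replicates 1 to 4, against 2583, 2562, 2858 and 2559 CPM in vehicle replicates 1, 3, 4 and 5. Vehicle replicate 4 then lay within the PAHSA range and the other vehicle libraries below it. The sum of the islet endocrine markers was not rescaled in this way. Without vehicle replicate 4, 57 genes were higher and 21 lower in PAHSA and the median difference was 0.12, where 48.5% of all tested genes were higher. The count at an unadjusted p under 0.05 was then 4 higher and 0 lower, and 0 genes passed the adjusted threshold. With the mean of the acinar markers as a covariate, 53 were higher and 25 lower, with a median of 0.09, where 50.4% of all tested genes were higher. At an unadjusted p under 0.05 there were 6 higher and 0 lower with that covariate, and 6 and 0 with the rescaled libraries.

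**Figure D5:**
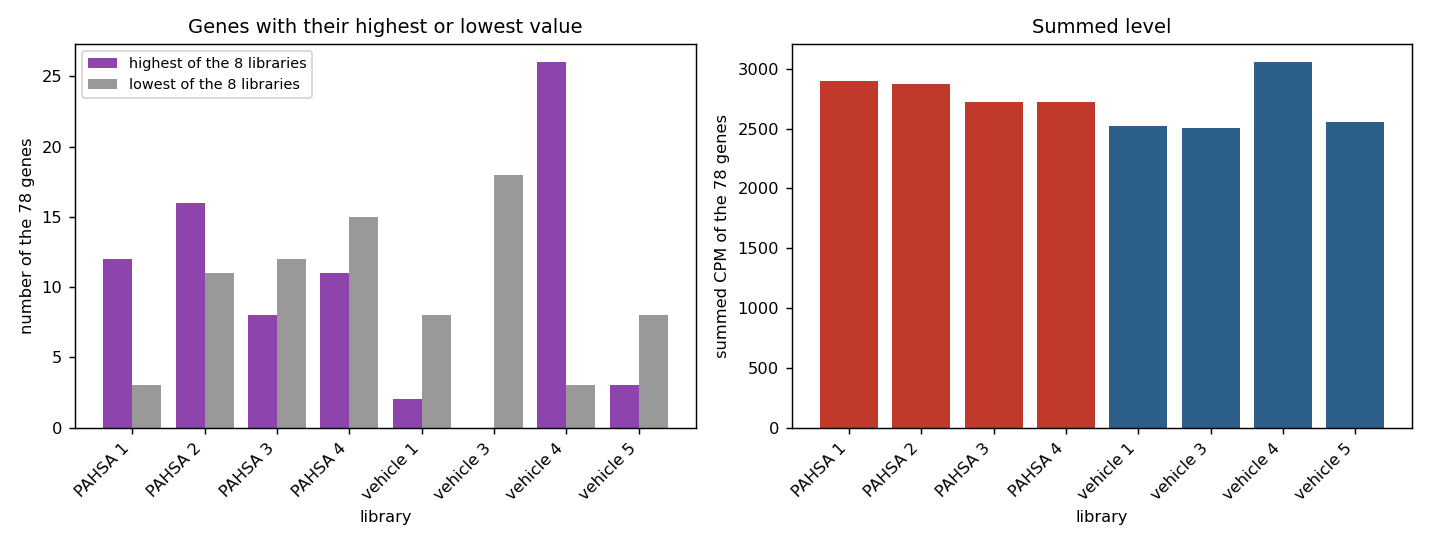
Left, the number of the 78 genes that have their highest (purple) or lowest (grey) value in each library; right, the summed CPM of the 78 genes in each library, PAHSA red and vehicle blue. Vehicle replicate 4 holds 26 highest values and a sum of 3056 CPM, and the other vehicle libraries have the lowest sums.

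The family is rich in genes that share their start region with a neighbour. In GENCODE M21, 33 of the 78 genes, or 42.3%, have a protein-coding gene on the other strand starting within 1000 bases, against 16.4% of 11810 tested protein-coding genes. Among these 33, PAHSA was higher for 22 and lower for 11 (median 0.08), and among the other 45 it was higher for 26 and lower for 19 (median 0.02). In 28 such pairs both genes were tested, and the pair had the same sign in 15. The partners of Mrpl50, Mrpl36 and Mrps12 are Zfp189, Ndufs6 and Sars2, a zinc finger gene, a respiratory complex I subunit and the mitochondrial seryl-tRNA synthetase.

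In 1 pair both genes belong to the family, Mrps11 and Mrpl46 on chromosome 7, whose start windows are printed above and named here after their values were seen. Mrps11, a small subunit protein, measured 4.77, 4.34, 4.47 and 4.36 log2 CPM in PAHSA replicates 1 to 4, against 3.90, 4.17, 4.31 and 4.28 in vehicle replicates 1, 3, 4 and 5. Its groups did not overlap, by a gap of 0.024, and the difference was 0.32 (SE 0.20; limma, adjusted p = 0.757). Mrpl46, a protein of the central protuberance, was at 4.66, 5.10, 4.48 and 4.45 in PAHSA, against 4.81, 4.70, 4.77 and 4.72 in vehicle, a difference of -0.08 (SE 0.19; -0.22 without PAHSA replicate 2 and -0.0009 without PAHSA replicate 4). Groups that did not overlap with PAHSA higher were found for 2 of the 78 genes, Mrpl50 and Mrps11, which is 2.56% against a background of 2.06%, and with PAHSA lower for 0 against 1.95%.

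Some values are less certain because reads can be shared. The kit does not mark the strand, and 28 of the 78 genes overlap exons of a gene on the other strand, 6 of them over at least 25% of their exonic length. Of these, Mrps25 shares 69.8% with Nr2c2, Mrps34 63.4% with Mapk8ip3 and Mrpl19, the lowest gene per kilobase, 36% with Gcfc2. Mrpl43 shares 33.4% with Twnk, Mrps18b 30.5% with Gm16279 and Mrpl24 26.3% with Rrnad1. On the same strand, Mrpl53 shares 88% of its exonic length with Gm42688, the largest overlap of the family, and Mrps34 shares 37% with Nme3. Processed pseudogene copies of 2 family members are in the table. Mrpl23-ps1 ranged over 4.74 to 5.09 log2 CPM in PAHSA and 4.90 to 5.11 in vehicle, above its parent Mrpl23 (neither scaled by length) at 3.29 to 4.24 in PAHSA and 3.70 to 3.95 in vehicle, so the values of this pair are uncertain. Mrpl48-ps was at 2.16 to 2.57 in PAHSA and 2.02 to 2.57 in vehicle, below Mrpl48 at 4.82 to 5.30 in PAHSA and 4.88 to 5.35 in vehicle.

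Genes that work with the mitochondrial ribosome were taken from lists by known function, chosen with earlier results of these data known. The 5 ribosomal proteins with other symbols had 3 higher and 2 lower, with the GTP-binding small subunit protein gene Dap3 at a difference of 0.18 (SE 0.15; 0.12 without PAHSA replicate 1) and Gadd45gip1, of the large subunit, at 0.18 (SE 0.24; 0.055 without PAHSA replicate 1). Of 29 tested assembly factors 14 were higher and 15 lower (median -0.03), a list that also holds Mdn1, known for cytosolic ribosomes. Mrm2, a methyltransferase of the large ribosomal RNA, differed by 0.77 (SE 0.49; 0.40 without vehicle replicate 3) and the GTPase gene Mtg1 by -0.45 (SE 0.31; -0.14 without PAHSA replicate 3). Of 23 tested translation factors and partners 13 were higher and 10 lower (median 0.08), with Mtfmt, which formylates the initiator transfer RNA, at 0.71 (SE 0.33; limma, adjusted p = 0.687) and the inner membrane protein gene Letm1 at 0.25 (SE 0.12).

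Transcripts of mitochondrial DNA itself, the templates of the ribosome, had 3 higher and 10 lower of 13 messenger RNAs, with a median of -0.05 and none at an unadjusted p under 0.05. mt-Nd1, a complex I subunit, averaged 9.64 ± 0.06 log2 CPM in PAHSA islets and 9.75 ± 0.18 in vehicle islets (SD, n = 4 each), and mt-Co2, a complex IV subunit, 9.77 ± 0.17 in PAHSA and 9.65 ± 0.16 in vehicle. The difference of mt-Nd1 was -0.017 without vehicle replicate 4, and its sign changed under quantile normalization, to 0.077. That of mt-Co2, 0.11, ran from 0.059 to 0.20 with 1 library left out. Neither of the 2 mitochondrial ribosomal RNAs was among the genes tested. Of 20 genes of general mitochondrial content 14 were higher and 6 lower (median 0.06), with the protease gene Lonp1 at 0.20 (SE 0.12; 0.12 without vehicle replicate 4) and the outer membrane channel gene Vdac3 at 0.22 (SE 0.13; 0.13 without PAHSA replicate 4).

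The list of mitochondrial gene expression and biogenesis factors had 8 higher and 9 lower of 17 tested genes. At an unadjusted p under 0.05 there was 1 in each direction. Yy1, the factor that binds the YY1 letters, measured 4.18, 4.14, 4.62 and 4.21 log2 CPM in PAHSA replicates 1 to 4, against 3.82, 3.64, 3.70 and 3.83 in vehicle replicates 1, 3, 4 and 5, with every PAHSA library above every vehicle library. The difference was 0.54 (SE 0.21; limma, adjusted p = 0.671). Gabpa, an ETS factor subunit, was at 3.92, 4.37, 5.54 and 4.66 in PAHSA, against 4.94, 5.77, 5.60 and 5.12 in vehicle, with PAHSA replicate 3 inside the vehicle range. The difference was -0.74 (SE 0.33; limma, adjusted p = 0.677). Neither Yy1 nor Gabpa passed over all genes. In the same list Gabpb1 differed by -0.05 (SE 0.26) and Nrf1, the gene of the factor for the NRF1 letters, by -0.11 (SE 0.27).

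Related families, taken by symbol, were measured in the same fit. Of 82 genes with cytosolic ribosomal protein symbols 36 were higher and 46 lower (median -0.01). In either direction 0 of them had an unadjusted p under 0.05. That list also holds Rps19bp1, Rpl7l1 and the entries Rpl10-ps3, Rpl9-ps6 and Rps12-ps3. Of 79 genes with symbols of the respiratory chain and ATP synthase, Atp5s and Cox7a2l among them, 37 were higher and 42 lower (median -0.01). At an unadjusted p under 0.05 there were 1 higher and 0 lower. Protein-coding genes in the same range of mean level as the mitochondrial ribosomal proteins had 3890 higher and 3545 lower of 7435 (median 0.01). No test of these differences between lists was made.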

How the data were processed

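Islet RNA was purified with an RNeasy kit and turned into libraries with NexteraXT, per the labels' protocols. The deposited values are log2 CPM, and the submitters' processing notes name kallisto and limma without versions. Which genome build, annotation release and filter the authors used is not given in the sources used here. Each of the 8 value columns carries the name of 1 library, and no column was left over. Symbols, positions and transcript lengths were taken from GENCODE M21 (GRCm38), where 49 identifiers had no match. Estimated counts were inferred from the lowest repeated values, taken as 0.5 added counts. Of them 47.8% to 51.5% lay within 0.01 of a whole number, so no count test was used.

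Genes with a mean log2 CPM above 0 were tested, 12231 of 13725, with limma 3.58.1 under R 4.3.3 (lmFit, then eBayes with trend). The model held group alone, tests were two-sided, and p-values were adjusted by Benjamini-Hochberg across all 12231 genes at a threshold of 0.05. The script was tested on simulated data. Differences are PAHSA minus vehicle in log2 CPM, which understates changes of weakly expressed genes. SEs and intervals come from limma and SDs from the 4 libraries of a group. Alternatives changed the filter, the added constant, the scaling, the variance model, the covariates and the libraries.

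The family and the gene lists were chosen with earlier results of these data known. Named genes were the 6 higher and 6 lower with the smallest p, the 3 highest and 3 lowest by mean log2 CPM, the 3 with the largest SD over the libraries, 8 names always given, and 2 with the smallest p from each related list. Other genes named were chosen after their values were seen. Start windows came from RefSeq.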

Additional observations from a re-analysis of the deposited data

Results flagged for a closer look

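In a group of 4 libraries, a library was singled out when its gap to the nearest other, as a share of the group's range, exceeded Dixon's 95% critical value. Of 80 groups examined 6 met this, and chance gives about 1 in 20. Vehicle replicate 4 was the high library in 4 of the 6. It was at 5.32 log2 CPM for Mrpl35, against 4.82 or less in the other vehicle libraries, at 5.35 for Mrps18c, against 4.85 or less, and at 5.76 for Mrpl58, against 5.04 or less. The summed level of the 78 genes was 3056 CPM in it, against 2559 or less in the other vehicle libraries. PAHSA replicate 2 was low for Mrps10, at 3.09 against 3.45 or more in the other PAHSA libraries. PAHSA replicate 3 was high for Yy1, at 4.62 against 4.21 or less in the other PAHSA libraries.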

How the results depend on the processing

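The number of genes past the adjusted threshold, in the family and over all genes, was 0 under all 19 alternatives run. The 4 higher genes at an unadjusted p under 0.05 became 1 with the replicate block, 6 with the acinar covariate, 6 with libraries rescaled to the same plain CPM total (chosen after seeing the data) and 1 to 4 when 1 library was left out, and the number of lower ones at that level was 0 throughout. Over all tested genes, in either direction, that level was reached by 894 in the main fit and 729 with the replicate block. It was reached by 864 with the acinar covariate, 857 with the rescaled libraries and 669 to 968 when 1 library was left out. The split of higher and lower genes in the family stayed between 43 and 58 higher, with medians from 0.017 with the replicate block to 0.13 without the libraries numbered 4. Same-numbered libraries did not deviate together (correlations of -0.020, -0.017 and -0.022 over genes), so the numbers were not used as pairs in the main fit. The replicate block does use them. PAHSA replicate 2 and vehicle replicate 5 have no partner of the same number. Differences with the block therefore rest on the libraries numbered 1, 3 and 4.

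Of 722 values of 38 named genes under alternatives, 22 values of 8 genes changed sign, none of them past the threshold in either fit, and the cause was not tested. With the replicate block these were Mrps33 at -0.0045, Mrps18a at -0.015, Mrps12 at -0.015 and Mrpl58 at -0.15. Mrpl58 was at -0.0052 with centred libraries and mt-Nd1 at 0.077 under quantile normalization. With the acinar covariate Mrpl47 was at -0.088 and Mrps23 at 0.38. Without the libraries numbered 4, Mrps23 was at 0.28, Mrps18c at 0.058 and mt-Nd1 at 0.00066. Leaving out 1 library gave -0.10 to 0.20 for Mrpl58, -0.10 to 0.46 for Mrpl47, -0.22 to 0.17 for Mrps23, -0.21 to 0.010 for Mrps18c and -0.016 to 0.16 for Mrps18a.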
